A study of Rattus norvegicus with 6 samples.

Results

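The T cell receptor complex and the kinases next to it were followed through 15 probe sets of 10 genes, out of 31042 probe sets tested in rat whole blood. The members were the CD3 chains Cd3d, Cd3e, Cd3g and Cd247 (6 probe sets), the co-receptors Cd4, Cd8a and Cd8b (5 probe sets), and the kinases Lck and Zap70 with the adaptor Lat (4 probe sets). A probe set was taken when the array annotation gave it 1 of these symbols and no other. The blood came from 3 rats subjected to middle cerebral artery occlusion (MCAO) and 3 sham-operated rats, all male Sprague-Dawley rats 8 weeks old, with 1 array for each rat. In the MCAO rats a silicone-coated thread closed the origin of the left middle cerebral artery and was later withdrawn. In the sham rats an uncoated thread was inserted in the same way, and the left common and external carotid arteries were ligated in both groups. Blood was drawn from the heart 24 h after reperfusion in both groups. The MCAO rats were those whose infarct size fell within a chosen window, so that the group holds a narrow range of injury. Each value is the deposited log2 value of a probe set, made with the DFW (Distribution Free Weighted) method. DFW contracts differences between arrays very unequally among probe sets, so a difference below is one on that scale and not a fold change of raw signal. Levels of different probe sets were compared only to take the brightest probe set of a gene in lists read beside the members, and to select brighter probe sets for alternative runs.

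The T cell receptor recognises peptides held by MHC molecules, but its antigen-binding chains have almost no cytoplasmic part and signal through the CD3 gamma, delta and epsilon chains and the zeta chain. CD4 and CD8 bind the MHC molecule and bring the kinase Lck to the receptor. Lck phosphorylates the tyrosine motifs of the CD3 and zeta chains, ZAP-70 docks there, and ZAP-70 in turn phosphorylates the adaptor LAT, on which the downstream signalling complex is built. In blood these genes are used chiefly by T cells, although CD4 is also found on rat monocytes and CD8 alpha, zeta, Lck and LAT in natural killer cells or platelets. The antigen-binding chains themselves were not analysed here.

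At 14 of the 15 probe sets MCAO rats had a lower mean than sham rats, a count that was 11 after quantile normalization and 7 when each array was centred on its median. Among all probe sets tested 46.6% had a lower mean in the MCAO group as deposited, 31.3% after quantile normalization and 7.53% after centring. After quantile normalization the median difference over all probe sets was 0. Probe sets tied at 0 count as not lower, so the remaining share was not all higher. Centring added the same amount to every difference, so members with small negative differences turned by arithmetic. Only Cd3g was downregulated in the MCAO group by Rank Products, the rank-based method of the study, at a false discovery rate (FDR) under 0.05, and no member was upregulated. Of all probe sets, 0.573% were called lower and 0.135% higher, so that 1 call among 15 probe sets is a single event. By limma, which sets each difference against the spread between rats, none of the members was called (adjusted p = 1 for each) and none had an unadjusted p under 0.05. Among all probe sets limma called 0%, and 3.7% had an unadjusted p under 0.05. The median difference over the 15 probe sets was -2.32e-05 log2 units, against 6.72e-08 over all probe sets. Whole blood does not tell fewer T cells from less of these mRNAs in each cell.

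**Figure D1:**
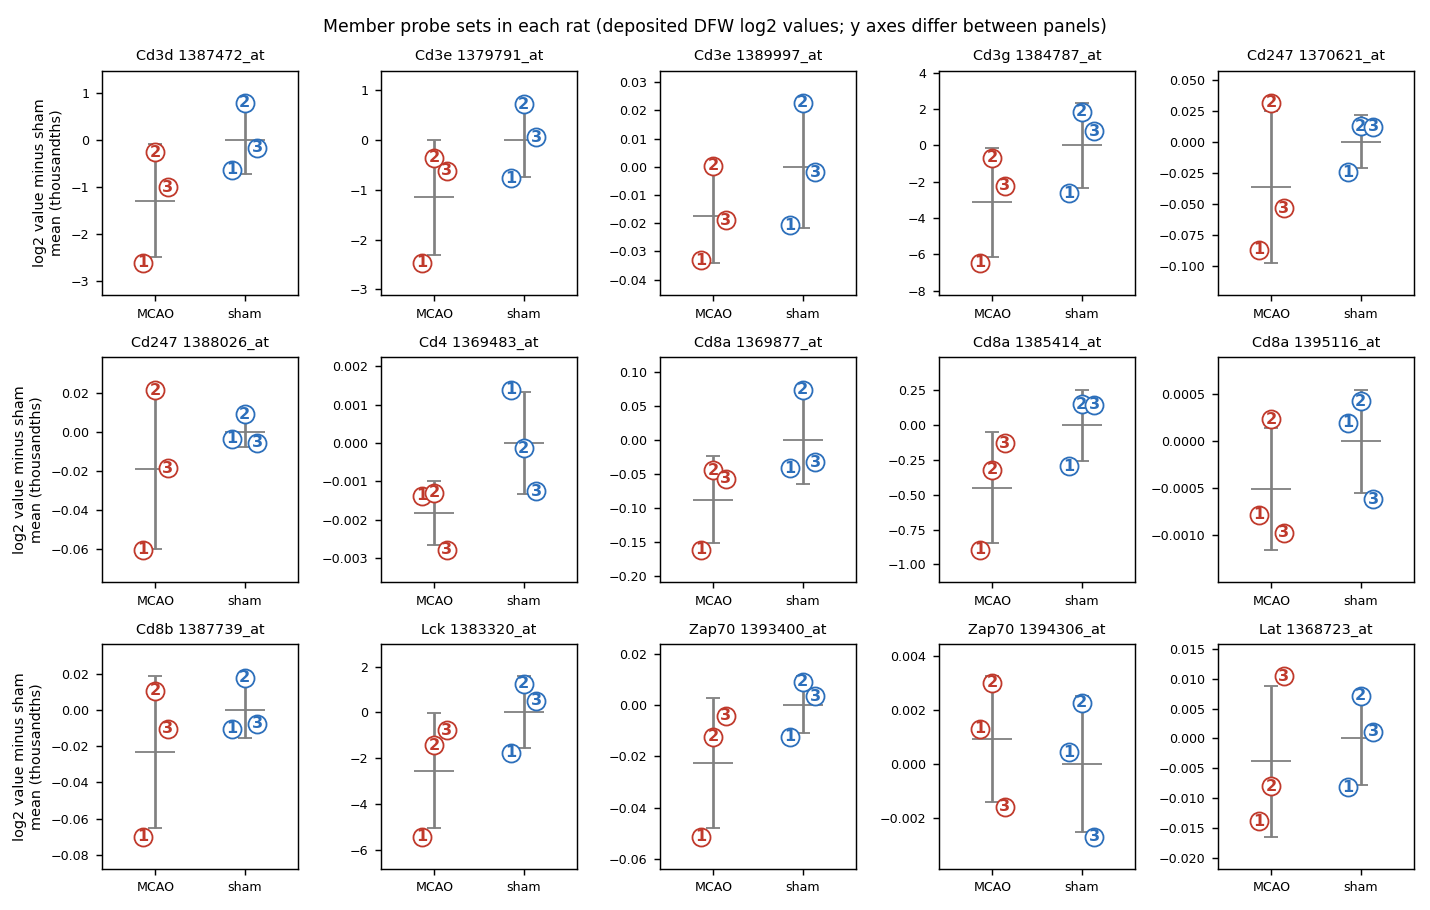
Each panel shows 1 member probe set as the deposited log2 value minus the mean of the 3 sham rats, in thousandths of a log2 unit (y axis, which differs between panels), for MCAO and sham rats, where digits mark the rat, the horizontal bar the group mean and the whiskers 1 SD (n = 3 each). MCAO rat 1 was lowest at 12 of the 15 probe sets and the means were lower in the MCAO group at 14, against 11 after quantile normalization and 7 after centring each array on its median.

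Cd3g, the gamma chain of CD3, had log2 values of 6.7517, 6.7575 and 6.7560 in MCAO rats 1 to 3 and of 6.7556, 6.7601 and 6.7590 in sham rats 1 to 3. MCAO rat 1 stood below the other rats, and sham rat 1 lay within the MCAO rats, so the groups overlapped. MCAO rats averaged 6.7551 ± 0.00300 and sham rats 6.7582 ± 0.00235 (SD, n = 3 in each group), which gave a difference of -0.00312 log2 units (SE 0.00207 by limma, 95% interval -0.00862 to 0.00238). The Rank Products FDR was 0.0484, and the exact two-sided permutation test gave p = 0.3, where 3 rats against 3 cannot go below 0.1. The study chose Cd3g on these same rats, and its call is no independent evidence. The call was lost without MCAO rat 1 (FDR 0.122), sham rat 1 (0.0848), sham rat 2 (0.599) or sham rat 3 (0.504), and after quantile normalization (0.0862). It was kept without MCAO rat 2 (0.0215) or MCAO rat 3 (0.0303).

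Cd3d, the delta chain, had log2 values of 6.4743, 6.4766 and 6.4759 in MCAO rats 1 to 3, against 6.4763, 6.4777 and 6.4767 in sham rats 1 to 3. MCAO rats 1 and 3 lay below all sham rats, and MCAO rat 2 lay between sham rats 1 and 3. The log2 difference was -0.00130 (SE 0.00077), with a Rank Products FDR of 0.0598 (exact permutation p = 0.2). Without MCAO rat 2 the FDR was 0.0190, but it was 0.104 without MCAO rat 1 and 0.0983 without MCAO rat 3. It was 0.176, 0.554 and 0.448 without sham rats 1, 2 and 3, and 0.116 after quantile normalization. Cd3e, the epsilon chain, which pairs with the gamma and the delta chain, had 6.8752, 6.8773 and 6.8770 in MCAO rats 1 to 3, against 6.8769, 6.8784 and 6.8777 in sham rats 1 to 3 at 1379791_at. The order of the 6 rats was that of Cd3g, with MCAO rat 1 lowest, then sham rat 1, and sham rat 2 highest. Its log2 difference was -0.00115 (SE 0.00075, FDR 0.148, exact permutation p = 0.3), and it turned to 3.06e-04 after quantile normalization. At the other Cd3e probe set, 1389997_at, the values ranged over only 5.59e-05 log2 units and the difference was -1.73e-05 (exact permutation p = 0.5).

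The genes of the gamma and delta chains lie head to head on chromosome 8 of the rat, on opposite strands, and the windows around their starts are separated by 1100 bases in the RefSeq annotation of GRCr8. The windows, 250 bases before to 50 bases after a start, are shown for the 4 genes whose probe sets had the widest differences among the members, Cd3g, Cd3d, Cd3e and Lck, the last with 2 annotated starts. Each is written 5′ to 3′ on the strand of the gene. Capitals mark AGGAAG, a core of ETS factor sites, TGTGGT, a core of RUNX sites, and CAGCTG, an E-box, each on either strand, and no matches of different motifs overlapped.
Cd3g (chr8:54183869-54184168, minus strand): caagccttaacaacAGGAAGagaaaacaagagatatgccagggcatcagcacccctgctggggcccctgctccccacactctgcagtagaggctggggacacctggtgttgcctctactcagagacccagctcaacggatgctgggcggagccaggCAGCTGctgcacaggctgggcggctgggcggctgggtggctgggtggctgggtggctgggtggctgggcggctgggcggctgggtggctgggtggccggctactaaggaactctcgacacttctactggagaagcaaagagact
Cd3d (chr8:54185269-54185568, plus strand): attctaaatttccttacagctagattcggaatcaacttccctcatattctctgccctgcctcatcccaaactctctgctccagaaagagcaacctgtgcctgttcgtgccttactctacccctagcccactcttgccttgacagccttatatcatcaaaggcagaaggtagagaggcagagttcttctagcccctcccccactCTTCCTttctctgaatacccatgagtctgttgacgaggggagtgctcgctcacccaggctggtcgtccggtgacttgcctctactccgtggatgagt
Cd3e (chr8:54211721-54212020, minus strand): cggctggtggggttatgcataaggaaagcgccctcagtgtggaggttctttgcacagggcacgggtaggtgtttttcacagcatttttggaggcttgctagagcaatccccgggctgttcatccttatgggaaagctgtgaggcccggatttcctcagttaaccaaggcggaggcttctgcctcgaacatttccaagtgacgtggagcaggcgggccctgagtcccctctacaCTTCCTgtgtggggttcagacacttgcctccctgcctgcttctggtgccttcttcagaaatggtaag
Lck, upstream start (chr5:147201218-147201517, minus strand): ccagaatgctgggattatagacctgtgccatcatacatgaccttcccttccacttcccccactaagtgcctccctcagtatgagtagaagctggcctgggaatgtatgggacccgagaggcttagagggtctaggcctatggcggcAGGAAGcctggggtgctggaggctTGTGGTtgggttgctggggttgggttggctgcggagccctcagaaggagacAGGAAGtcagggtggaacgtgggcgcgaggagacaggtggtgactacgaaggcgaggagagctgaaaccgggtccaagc
Lck, downstream start (chr5:147183601-147183900, minus strand): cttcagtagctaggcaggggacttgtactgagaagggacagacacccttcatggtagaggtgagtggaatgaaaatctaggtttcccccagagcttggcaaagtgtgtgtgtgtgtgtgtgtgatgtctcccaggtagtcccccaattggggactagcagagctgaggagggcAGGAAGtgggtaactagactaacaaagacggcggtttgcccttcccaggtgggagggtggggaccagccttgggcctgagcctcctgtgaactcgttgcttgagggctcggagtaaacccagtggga
AGGAAG was found once in each of the Cd3g, Cd3d and Cd3e windows and in the downstream Lck window and at 2 places in the upstream Lck window. TGTGGT was found only in the upstream Lck window among these 5, and CAGCTG only in the Cd3g window. Of 33469 RefSeq windows of the same length, 34.5% hold AGGAAG, 17.3% hold TGTGGT and 15.1% hold CAGCTG. A match describes the letters only, and windows were found for 8 of the 10 members.

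Cd247, the zeta chain, carries most of the tyrosine motifs of the complex and varied less on this scale than Cd3g and Cd3d. By range over the 6 rats its probe sets were still 3066th (1370621_at) and 3637th (1388026_at) of 31042. At 1370621_at the MCAO rats 1 to 3 lay at -87.4, 31.6 and -53.8 millionths of a log2 unit from the sham mean, and sham rats 1 to 3 at -24.6, 12.5 and 12.2. At 1388026_at the MCAO rats 1 to 3 lay at -60.6, 21.4 and -18.7 millionths from the sham mean, and sham rats 1 to 3 at -3.51, 9.05 and -5.54. MCAO rat 1 was lowest at both probe sets, as for the other CD3 chains, but the highest rat was MCAO rat 2 and not sham rat 2. The differences were -3.65e-05 (SE 3.53e-05) and -1.93e-05 (SE 2.27e-05), with exact permutation p values of 0.4 and 0.5. Of the 6 CD3 chain probe sets all 6 had a lower mean in MCAO rats, but 4 after quantile normalization and 4 after centring, and the groups overlapped at all 6.

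**Figure D2:**
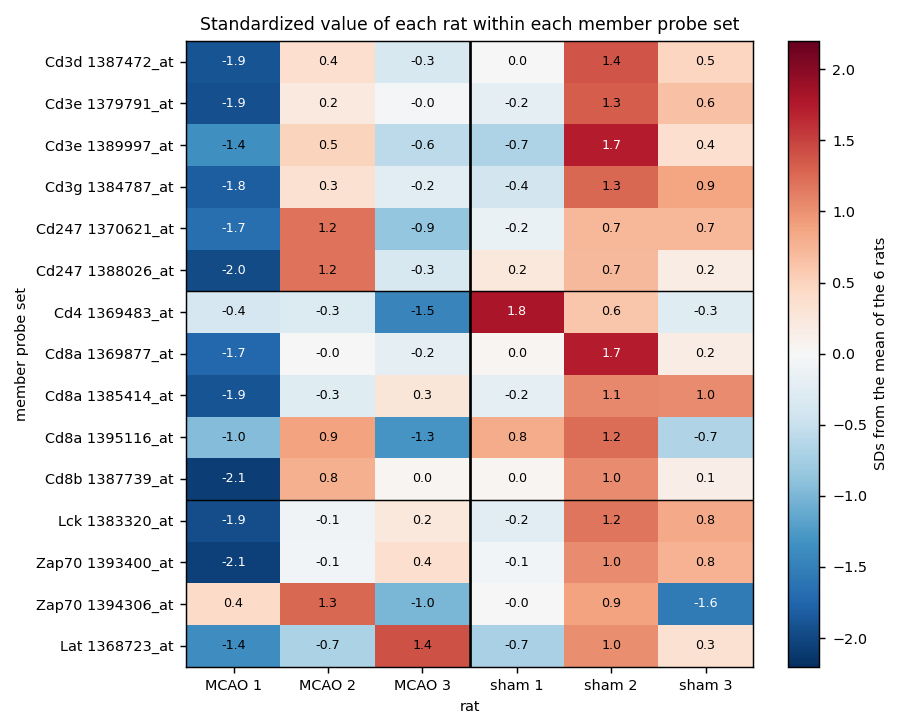
Colour and number give the distance of each rat (columns, MCAO rats left) from the mean of the 6 rats, in SDs of that probe set (rows, by role). MCAO rat 1 was lowest at 12 and sham rat 2 highest at 10 of the 15 probe sets, with Cd247, Cd4, Lat and Zap70 at 1394306_at as the exceptions for the highest rat.

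Among the co-receptors, Cd8a, the alpha chain of CD8, was measured by 3 probe sets. At 1385414_at the log2 values were 6.2294, 6.2300 and 6.2302 in MCAO rats 1 to 3, against 6.2300, 6.2304 and 6.2304 in sham rats 1 to 3. Sham rat 1 lay within the MCAO rats, and the difference was -0.000449 (SE 0.000257, FDR 0.183, exact permutation p = 0.2). At 1369877_at the MCAO rats 1 to 3 lay at -162, -44.4 and -57.1 millionths of a log2 unit from the sham mean, and sham rats 1 to 3 at -41.5, 74.2 and -32.6. Every MCAO rat was below every sham rat there, by a gap between MCAO rat 2 and sham rat 1 that was small against the spread of both groups. The difference was -8.78e-05 (SE 4.95e-05, FDR 0.377, exact permutation p = 0.1). The probe set 1395116_at ranged over 1.39e-06 log2 units in all, and MCAO and sham rats were mixed.

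Cd4, the co-receptor of helper T cells, was the other member whose groups did not overlap. The MCAO rats 1 to 3 lay at -1.37, -1.30 and -2.78 millionths of a log2 unit from the sham mean, and sham rats 1 to 3 at 1.39, -0.136 and -1.25. Here MCAO rat 3 was lowest and sham rat 1 highest, an order unlike that of the CD3 chains. The difference was -1.82e-06 (SE 8.89e-07, exact permutation p = 0.1), it turned to 8.08e-06 after quantile normalization and to 2.80e-05 after centring, and the probe set was 19077th of 31042 by range. Cd8b, the beta chain of CD8, had a difference of -2.32e-05 (SE 2.42e-05, exact permutation p = 0.5), with MCAO rat 1 at -70 millionths of a log2 unit from the sham mean and the other MCAO rats at 10.6 and -10.2, against -10.2, 17.9 and -7.68 in sham rats 1 to 3. Without MCAO rat 1 the Cd8b difference was 1.62e-07. The MCAO group was below the sham group without overlap at 2 of the 15 probe sets and above it at 0, where 3.6% and 4.82% of all probe sets were so separated. Neither co-receptor probe set was separated after quantile normalization or after centring, where MCAO lay wholly below sham at 0.512% of all probe sets under each. After centring the only separated member was Lat, with MCAO above sham, as at 26.3% of all probe sets.

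Lck, the kinase that starts the signal, had the difference next in size to Cd3g. Its log2 values were 6.6421, 6.6461 and 6.6467 in MCAO rats 1 to 3, against 6.6458, 6.6488 and 6.6480 in sham rats 1 to 3. MCAO rat 1 stood below the other rats, sham rat 1 lay below MCAO rats 2 and 3, and sham rats 2 and 3 were highest. MCAO rats averaged 6.6450 ± 0.00251 and sham rats 6.6475 ± 0.00157 (SD, n = 3 in each group), which gave a difference of -0.00255 log2 units (SE 0.00161, 95% interval -0.00682 to 0.00173). The Rank Products FDR was 0.0598 (exact permutation p = 0.3). It was 0.169, 0.0389 and 0.0306 without MCAO rats 1, 2 and 3. Without sham rats 1, 2 and 3 it was 0.0941, 0.662 and 0.578, and after quantile normalization 0.173.

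Zap70, the kinase recruited by the phosphorylated chains, gave different pictures at its probe sets. At 1393400_at the order of the rats was that of Lck, and the MCAO rats 1 to 3 lay at -51.3, -12.4 and -4.13 millionths of a log2 unit from the sham mean, against -12.4, 8.96 and 3.46 in sham rats 1 to 3, with a difference of -2.26e-05 (SE 1.50e-05, exact permutation p = 0.3). At 1394306_at sham rat 3 was lowest and MCAO rat 2 highest, and the difference of 9.04e-07 (SE 1.87e-06, exact permutation p = 0.6) was the only one above 0 among the members. Lat, the adaptor, had a difference of -3.82e-06 (SE 8.06e-06, exact permutation p = 0.8). MCAO rats 1 to 3 lay at -13.8, -8.01 and 10.4 millionths of a log2 unit from the sham mean for Lat, and sham rats 1 to 3 at -8.21, 7.13 and 1.09, so that MCAO rat 3 was highest and MCAO rat 1 lowest.

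**Figure D3:**
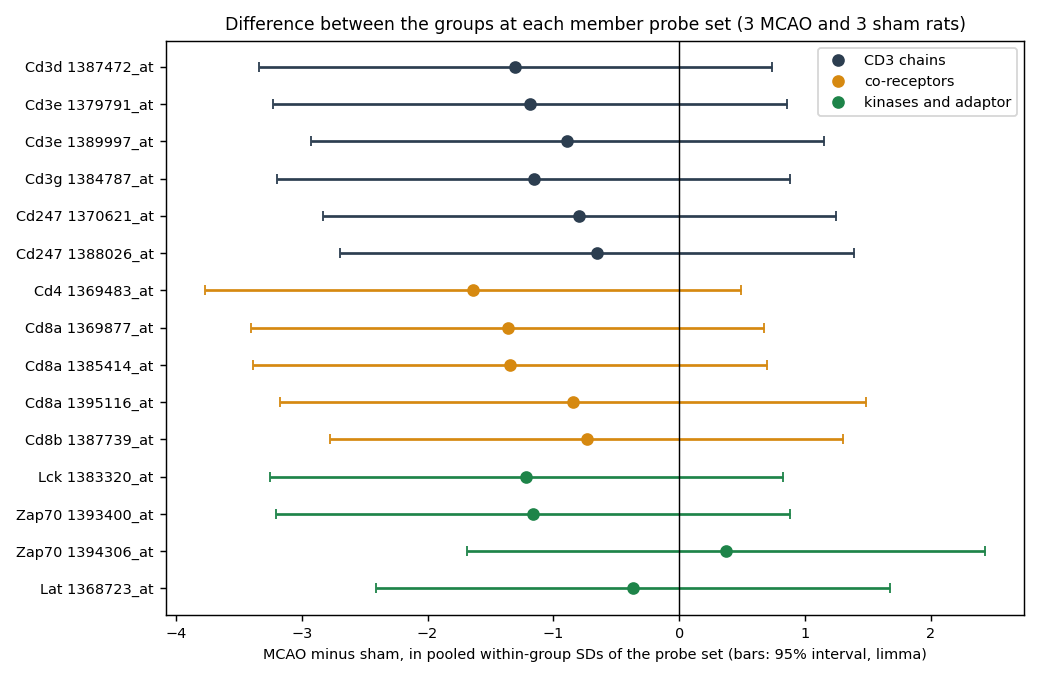
Points give the MCAO minus sham difference of each member probe set in units of its pooled within-group SD (x axis), with 95% intervals from limma, for 3 MCAO and 3 sham rats. Every interval includes 0, and 14 of the 15 points lie below 0, against 11 after quantile normalization and 7 after centring each array on its median.

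Because DFW leaves each probe set its own width, the differences were also set in units of the pooled SD within groups. On this scale the roles lay close together, with medians of -1.02 for the CD3 chains, -1.34 for the co-receptors and -0.763 for the kinases and adaptor, and no test was made between them. At or below -1 lay 11.9% of all probe sets. The median was -1.16 over the 15 probe sets and 0.0757 over all probe sets. Cd4 had the lowest value at -1.64, from a difference of only -1.82e-06 log2 units, where the median SD of a probe set was 2.46e-06. Cd8a had -1.36 at 1369877_at, Cd3d had -1.30, Lck had -1.22 and Cd3e had -1.18 at 1379791_at. Zap70 at 1393400_at and Cd3g both had -1.16. The other Cd8a probe sets had -1.34 at 1385414_at and -0.846 at 1395116_at, so in these units Cd3g and Lck did not stand first among the members. By range over the 6 rats Cd3g was 202nd and Lck 235th of 31042 probe sets, and 210 of the 220 probe sets called by Rank Products were among the 1000 with the widest range.

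**Figure D4:**
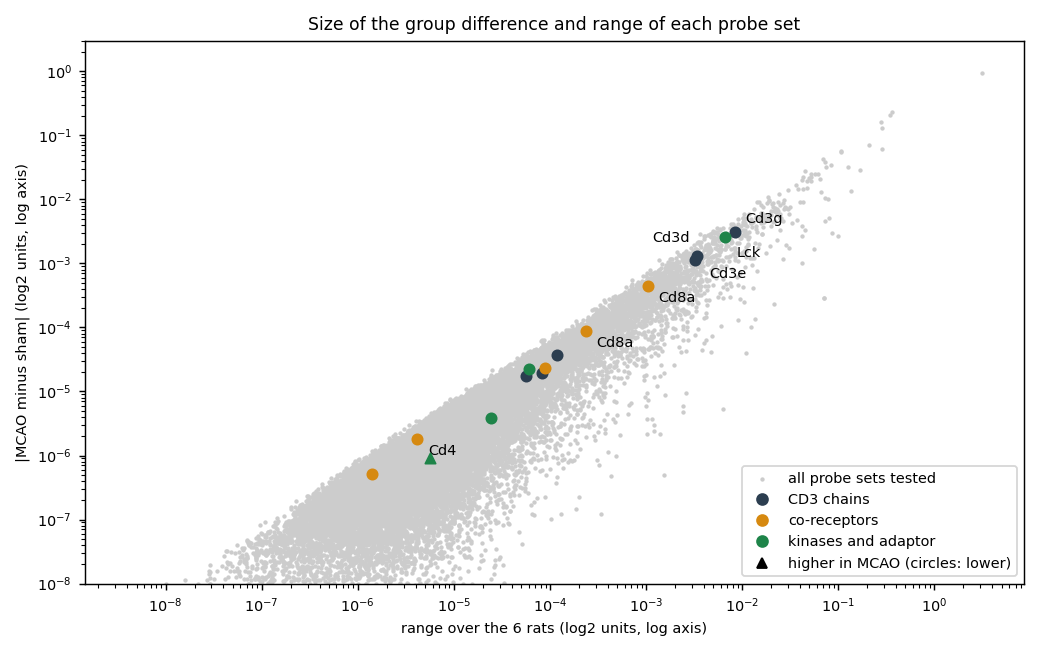
Each grey point is a probe set, with its range over the 6 rats (x axis, log2 units, log axis) and the size of its MCAO minus sham difference (y axis, log2 units, log axis), and coloured points are members by role. A difference of group means cannot exceed the range of the same rats, so the upper edge of the band is set by arithmetic. The ranges of the members run between 1.39e-06 (Cd8a at 1395116_at) and 0.00832 (Cd3g).

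The rats were not equally placed within their groups. MCAO rat 1 was the lowest of the 6 at 12 of the 15 probe sets and the highest at 0, although among all probe sets it was lowest at 19.5% and highest at 30%. Sham rat 2 was highest at 10 of the 15, against 14.8% of all probe sets, and both held together at 9 of the 15, against 5.87% of all probe sets and 17.8% of those with a range above 0.001 log2 units. Among the 1081 probe sets with a range above 0.001 log2 units, to which 5 members belong, 57.9% were lowest in MCAO rat 1, 22.8% were highest in sham rat 2 and 80% had a lower mean in the MCAO group. The low position of MCAO rat 1 and the lower means were therefore common in the wide probe sets as a whole, and their part in the results for the members was not tested. Without MCAO rat 1 the mean remained lower in the MCAO group at 11 of the 15 probe sets, and the difference was -0.00145 for Cd3g. Cd247 at 1388026_at, Cd8b and Lat then had differences of 1.34e-06, 1.62e-07 and 1.19e-06. Without sham rat 1, the MCAO rats were below the sham rats at 8 of the 15 probe sets with no overlap, as they were at 10.3% of all probe sets.

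The profile of Cd3g over the 6 rats was set beside those of 863 other probe sets with 1 symbol and a range above 0.001 log2 units. The nearest genes by root mean square distance between standardized values were Satb1, a chromatin organiser (0.0758 SD), Cd69, an activation antigen of lymphocytes (0.105), Snhg4, a host gene of small nucleolar RNAs (0.110), Eif3m, a subunit of a translation initiation factor (0.154), and Ms4a6bl1, of the MS4A family (0.155). Of the members with such a range, Cd3e lay 8th at 0.165, Cd3d 23rd at 0.248, Lck 34th at 0.273 and Cd8a 66th at 0.352. These distances describe 6 arrays only.

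Of 56 further symbols of T cell receptor chains, signalling and costimulation, 36 were measured, each by its brightest probe set. None of the 36 was an antigen-binding chain. MCAO rats had the lower mean for 29 of these 36 genes and the higher for 7, but the lower for 21 after quantile normalization and for 14 after centring. Of all probe sets 46.6% had a lower mean as deposited, 31.3% after quantile normalization, where ties at 0 count as not lower, and 7.53% after centring. By Rank Products 1 of the 36 was downregulated, against 0.573% of all probe sets, none was upregulated, against 0.135%, and 35 were not called. The 1 was Ptprc, which encodes CD45, the phosphatase that keeps Lck ready for activation. It had 7.6458, 7.6643 and 7.6679 in MCAO rats 1 to 3, against 7.6622, 7.6686 and 7.6683 in sham rats 1 to 3, a difference of -0.00706 (SE 0.00674, FDR 0.0291, exact permutation p = 0.5). MCAO rat 1 stood far below the others, and without it the difference was -2.92e-04 (FDR 0.175). Without sham rat 1, 2 or 3 the FDR of Ptprc was 0.0694, 0.451 and 0.461, and after quantile normalization it was 0.105.

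The widest differences of the list in units of the pooled SD were those of Trat1, an adaptor that binds the receptor's zeta chain (-2.81), Txk, a Tec family kinase (-2.06), Plcg1, the phospholipase docked on LAT (-1.81), and Ctla4, an inhibitory receptor (1.43). Trat1 had 5.24898, 5.24900 and 5.24896 in MCAO rats 1 to 3, against 5.24903, 5.24902 and 5.24905 in sham rats 1 to 3. All MCAO rats were below all sham rats for Trat1 and Txk and above them for Ctla4 (exact permutation p = 0.1 for each), whereas for Plcg1 the groups overlapped (p = 0.2, exact). In log2 units these differences were -5.07e-05 for Trat1, -3.41e-05 for Txk, -2.96e-05 for Plcg1 and 2.44e-06 for Ctla4. None of the 36 was called by limma, and 2 had an unadjusted p under 0.05 (Trat1 and Txk), against 3.7% of all probe sets. The groups did not overlap for 2 of the 36 with MCAO lower and for 1 with MCAO higher. Of all probe sets 3.6% and 4.82% were so separated. Trat1, Txk, Plcg1 and Ctla4 were picked for their wide differences in SD units, so separation among them follows in part from the choice. The list's median difference was -8.48e-06, against 6.72e-08 over all probe sets.

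Markers of other blood cells were read in the same arrays, each by its brightest probe set. All values are on the log2 scale and well above 0, and they hold no background estimate. Of 7 T cell markers, which include the CD3 chains, 6 were lower in the MCAO group (5 after quantile normalization, 4 after centring). Of 5 B cell markers 4 were lower (4 and 2 under the same scalings), and their summed log2 values ran between 32.8402 and 32.8466 in MCAO rats and between 32.8467 and 32.8513 in sham rats. Of 8 natural killer and cytotoxic cell markers 8 were lower (7 and 7), with sums of 46.9315 to 46.9511 in MCAO rats and 46.9422 to 46.9545 in sham rats. Only the B cell sums did not overlap between the groups among these lists, and nearly all of their difference came from Ms4a1 (-0.00509 log2 units), against -6.97e-05 for Cd79b and less for Cd22, Blk and Fcrla, the last of which had the higher mean in MCAO rats.

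Monocyte markers were lower for 3 of 7 (1 and 1), with sums of 46.0036 to 46.0904 in MCAO rats and 46.0276 to 46.0694 in sham rats. Neutrophil markers were lower for 1 of 7 (2 and 1), with sums of 45.6228 to 45.8593 in MCAO rats and 45.6973 to 45.7323 in sham rats. Platelet markers were lower for 1 of 5 (1 and 1), with sums of 43.7027 to 43.7065 in MCAO rats and 43.7021 to 43.7041 in sham rats. Red cell markers were lower for 6 of 6 (1 and 5), with sums of 57.0417 to 57.0466 in MCAO rats and 57.0429 to 57.0500 in sham rats. After quantile normalization the median difference of the red cell markers was 0. Those not lower were thus in part tied and not all higher. The highest monocyte, neutrophil and platelet sums were in MCAO rat 3. Such sums are moved most by wide probe sets. Among the 6 rats Lyz2 of the monocyte list ran between 10.4107 and 10.4824, and S100a9 of the neutrophil list between 9.0246 and 9.1236. The widest group differences in the neutrophil and the natural killer lists were 0.0131 for Csf3r and -0.00489 for Prf1. Rank Products called Ms4a1 (FDR 0.00414) and Prf1 (0.0223) lower, and also S100a9 (0.0409), although its mean was higher in MCAO rats. Csf3r was called higher (0.0303), and apart from Cd3g no other marker was called. Of all probe sets 0.573% were called lower and 0.135% higher. The lowest sums of the T cell, B cell, natural killer cell, monocyte and neutrophil lists were all in MCAO rat 1, and the part of cell composition in the values of the members was not tested.

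**Figure D5:**
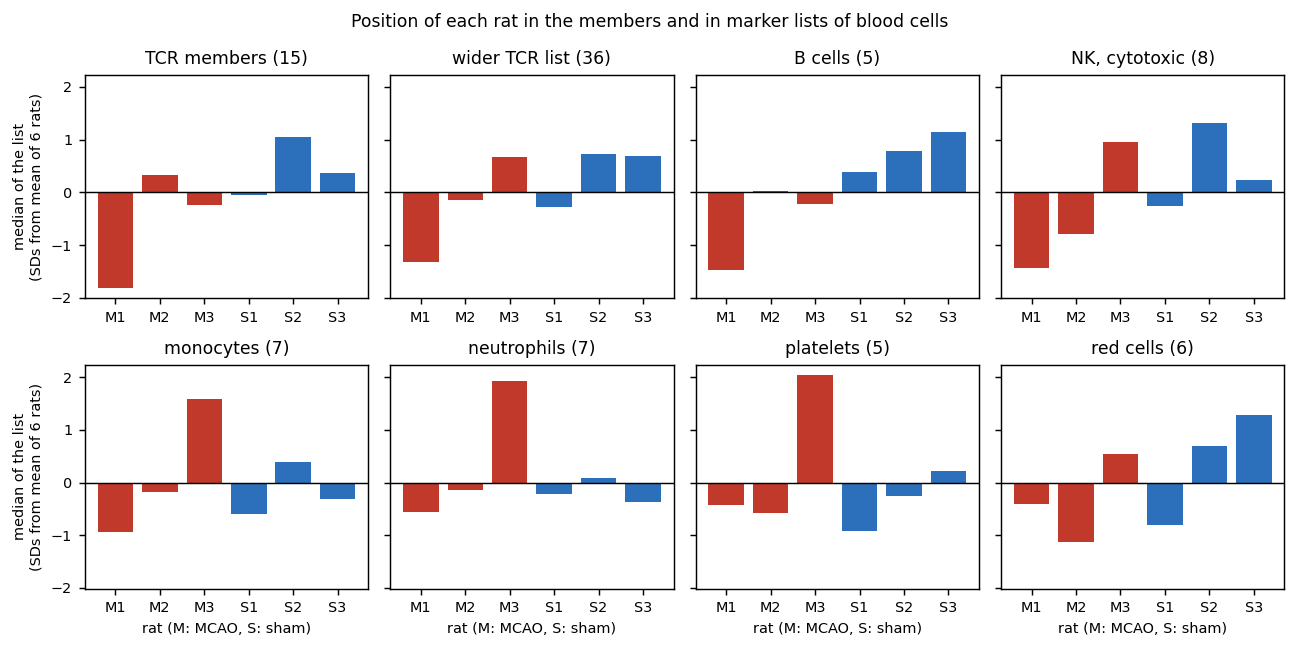
Bars give, for each rat (x axis, M for MCAO and S for sham), the median over a list of the standardized values, in SDs from the mean of the 6 rats (y axis), for the 15 member probe sets and for marker lists with the number of genes in brackets. MCAO rat 1 lay at -1.82 in the members, -1.32 in the wider signalling list, -1.47 in B cells and -1.43 in natural killer and cytotoxic cells, while MCAO rat 3 lay at 1.93 in neutrophils and 2.04 in platelets.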

How the data were processed

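Total RNA of whole blood from 3 MCAO and 3 sham rats was hybridized to Affymetrix GeneChip arrays of the rat genome, with 1 array for each animal. The deposited log2 values cover 31099 probe sets, and the authors made them from all 6 arrays at once with DFW in R, with no filter stated. They lie between 4.93 and 14.43, and log2 was inferred from this range. The median SD of a probe set was 2.46e-06. Sequencing depth does not apply, and precision is limited by how few arrays there were.

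The 57 control probe sets were left out. Rank Products was written in Python 3.11.15 (numpy 2.4.6, pandas 2.3.3) with all 9 MCAO minus sham differences, 100 permutations and an FDR threshold of 0.05. limma 3.58.1 in R 4.3.3 gave differences, SEs and p values adjusted over all probe sets. Both were run on simulated data with no shift or with shifts far wider in SD units than the member differences. Those runs do not measure their power for the members. Permutation tests were exact and two-sided, using all 10 ways to divide the rats. The 20826 probe sets with 1 symbol in the array annotation could be named.

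Members and lists were chosen with earlier results of these data known. Every member probe set was named, together with the called genes and the 4 widest differences of the wider list and the 5 nearest profiles to Cd3g. Alternatives were other scalings, filters, thresholds, rank statistics, an intensity trend, rats of the same number as blocks and leaving out each rat. A run with 1000 permutations was added after seeing the data. Scanner files were not used here.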

Additional observations from a re-analysis of the deposited data

How the results depend on the processing

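Of 150 values of the member differences under alternatives, 127 kept their direction and their side of the FDR threshold. In the runs with 1000 permutations and with rat numbers as blocks the direction could not change, because the group means were the same. The block run was judged by the adjusted p of limma and not by Rank Products. The probe sets of Cd3d, Cd3g and Lck and those of Cd8a at 1369877_at and 1385414_at were lower in the MCAO group under every alternative run, 5 of the 15, and 10 changed direction under at least 1. The cause was not tested.

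The count of members called lower by Rank Products, 1 as reported, was 0 after quantile normalization, in a run on the 15521 brightest probe sets, with rank sums, with limma and at an FDR threshold of 0.01. It was between 0 and 3 with 1 rat left out (Lck and Cd3d were added without MCAO rat 2, and Lck without MCAO rat 3), while the calls over all probe sets, 178 as reported, were 254, 170 and 336 without MCAO rats 1, 2 and 3 and 42, 21 and 13 without sham rats 1, 2 and 3. It remained 1 with 1000 permutations (Cd3g at FDR 0.0471). No member was called higher in any run. After quantile normalization limma called 62 of all probe sets, against 0 as deposited, and no member. The separated member probe sets were then 0 and the median difference of the members was -7.24e-05. Ptprc was not called, so the wider list had 0 calls. With 1 rat left out that list had 0 to 1 calls, the members had 2 to 8 separated probe sets, all with MCAO lower (6.36% to 10.3% of all probe sets), 11 to 15 had a lower mean, and their median difference was between -4.01e-05 and -9.36e-06. With arrays centred on the median 7 had a lower mean, 1 was separated (Lat, with MCAO higher) and the median difference of the members was 6.57e-06. Centring added the same amount to every difference and moved the median of all probe sets from 6.72e-08 to 2.98e-05. With 1 probe set for each gene, the brightest, 9 of 10 had a lower mean.

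Directions turned after quantile normalization for Cd3e at 1379791_at (3.06e-04), Cd247 at 1370621_at (4.64e-05), Cd4 (8.08e-06) and, in the wider list, Plcg1 (9.24e-06). They turned with centring for Cd3e at 1389997_at (1.25e-05), Cd247 at 1388026_at (1.05e-05), Cd4 (2.80e-05), Cd8a at 1395116_at (2.93e-05), Cd8b (6.57e-06), Zap70 at 1393400_at (7.18e-06), Lat (2.60e-05) and Plcg1 (1.77e-07). Without MCAO rat 1 they turned for Cd247 at 1388026_at (1.34e-06), Cd8b (1.62e-07) and Lat (1.19e-06), whose lowest values with 1 rat left out were -3.97e-05, -4.01e-05 and -1.09e-05. For Zap70 at 1394306_at the difference was -1.465e-07 without MCAO rat 2 and -4.43e-07 without sham rat 3, and the highest with 1 rat left out was 2.15e-06.

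Rats of the same number deviated together with correlations of 0.211, 0.0400 and 0.0661 over probe sets for numbers 1 to 3, and MCAO rat 3 correlated best with sham rat 2 (0.166), so the numbers were not taken to pair the rats. With the replicate number as a block limma called 0 members, 6 of 15 had an unadjusted p under 0.05 (6.21% of all probe sets) and the smallest adjusted p was 0.723 for Cd3g. In the wider list the block gave 0 calls.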
